A study of Mus musculus with 12 samples.

Results

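The region described here is the stretch of chromosome 6 that lies beyond Nanog as seen from the Nanog −45 enhancer, chr6:122720001-123663539 in mm10, which runs from 56.46 to 1000 kb downstream of that enhancer's capture oligonucleotide. Its members are all pairs of restriction fragments, recorded together with the −45 enhancer, whose midpoints both lie in the region. In naive cells 2593 of 24352 distinct pairs were members and held 5832 of 41081 counts. In primed cells 2399 of 21530 pairs were members and held 4740 of 32749 counts. The whole series holds 159167 pair entries with 241872 counts over 46 tables. Tri-C records three-way contacts: chromatin is crosslinked, cut with DpnII at GATC and ligated, fragments joined to a chosen viewpoint are captured with biotinylated oligonucleotides, and each read with at least 2 further fragments gives pairs of reporters. All samples were J1, a single line of mouse embryonic stem cells. Naive cells were held in serum-free N2B27 with 2i and LIF. Primed cells had lost 2i, LIF and BSA and received Fgf2, Activin A and knockout serum replacement on Geltrex for 7 days. There were 3 biological replicates for each state and oligonucleotide pool, 12 samples in all, and the −45 viewpoint belongs to the first pool. Each table holds 1 count per fragment pair and state and names no replicate. The 3 replicates were therefore treated as summed, no test across samples was possible and no value has a replicate error. All intervals are exact 95% intervals for counting error only, and they are too narrow where 1 read adds several pairs or amplified reads were counted more than once.

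Naive and primed mouse cells stand for pluripotency before and after implantation. Nanog, a homeodomain factor of the naive network, is fed by several enhancers upstream and downstream of the gene, and the downstream ones lie next to other genes of the same chromosome. Slc2a3, the nearest of these, codes for the glucose transporter GLUT3, and is followed by Foxj2, a forkhead transcription factor, C3ar1, the receptor of the complement fragment C3a, and Necap1, a protein of clathrin-mediated endocytosis. Farther out lie a cluster of Clec4 genes, which code for C-type lectin receptors of myeloid cells, and a cluster of Vmn2r genes, which code for vomeronasal pheromone receptors.

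The sequences below mark the points on which the results turn. The first is the oligonucleotide of the −45 viewpoint, chr6:122663539-122663638 (mm10, plus strand), which every pair shares. The second is the oligonucleotide of the +60 enhancer, chr6:122764637-122764736 (mm10, plus strand), 101.1 kb from the viewpoint and inside the span of Slc2a3, which lies in the 10 kb bin with the highest naive to primed ratio by counts in the first 100 kb. The promoters of Foxj2 (chr6:122819934-122820183, plus strand) and C3ar1 (chr6:122856158-122856407, minus strand) follow because these neighbours differ in their counts. The promoters of Vmn2r20 (chr6:123418062-123418311, minus strand) and Vmn2r22 (chr6:123650636-123650885, minus strand) are given because they are near copies of each other, a property that bears on the far end of the region. Promoters are the 250 bases before the start in RefSeq, GRCm38.p6, the assembly that mm10 is made from, and all sequences run 5′ to 3′ with GATC in capitals.
−45 viewpoint oligonucleotide: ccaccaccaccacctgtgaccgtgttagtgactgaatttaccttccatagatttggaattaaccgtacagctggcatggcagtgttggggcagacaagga
+60 oligonucleotide: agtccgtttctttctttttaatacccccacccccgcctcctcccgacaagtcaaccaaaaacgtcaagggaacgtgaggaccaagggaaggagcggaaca
Foxj2 promoter: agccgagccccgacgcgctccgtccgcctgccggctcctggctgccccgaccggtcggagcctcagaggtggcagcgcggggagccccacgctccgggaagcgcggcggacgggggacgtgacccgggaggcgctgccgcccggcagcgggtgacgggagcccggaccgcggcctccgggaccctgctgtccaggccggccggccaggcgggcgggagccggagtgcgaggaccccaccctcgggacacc
C3ar1 promoter: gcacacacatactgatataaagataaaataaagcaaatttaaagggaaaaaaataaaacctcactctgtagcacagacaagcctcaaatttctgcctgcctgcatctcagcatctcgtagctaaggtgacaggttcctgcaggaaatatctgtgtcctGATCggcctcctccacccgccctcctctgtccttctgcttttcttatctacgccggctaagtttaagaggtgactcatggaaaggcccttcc
Vmn2r20 promoter: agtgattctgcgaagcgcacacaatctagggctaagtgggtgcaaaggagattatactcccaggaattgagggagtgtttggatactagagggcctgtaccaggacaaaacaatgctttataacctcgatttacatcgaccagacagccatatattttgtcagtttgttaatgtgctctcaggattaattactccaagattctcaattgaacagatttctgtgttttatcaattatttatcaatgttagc
Vmn2r22 promoter: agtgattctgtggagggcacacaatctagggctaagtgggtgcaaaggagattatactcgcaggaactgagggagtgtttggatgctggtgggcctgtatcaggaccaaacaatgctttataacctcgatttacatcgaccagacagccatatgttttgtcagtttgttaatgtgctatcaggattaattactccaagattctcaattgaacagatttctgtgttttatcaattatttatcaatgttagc
The promoter table held 14 promoters for 13 of the region's 29 genes. GATC, which reads the same on both strands, was in 5 of the 14, against 41.9% of all 32851 promoters of this length. The 5 promoters hold 6 sites, and all 6 were an edge of a member fragment. Aligned without gaps, the Vmn2r20 and Vmn2r22 promoters were the same at 238 positions, 95.2% of the 250. Pairs with a fragment that overlapped the Foxj2 promoter had 16 naive and 2 primed counts. The C3ar1 promoter, which is cut once by DpnII, had 23 and 24, and the Necap1 promoter 26 and 13. As shares of the region's counts these gave ratios of 6.50 at Foxj2 (1.53 to 58.3), 0.779 at C3ar1 (0.420 to 1.44) and 1.63 at Necap1 (0.806 to 3.45). The naive count was the lower one at the promoters of Clec4a3, with 0 and 10 counts, Clec4a1, with 2 and 6, and Vmn2r19, with 0 and 4. Of the other promoters none had over 3 counts in a state.

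The region took the same share of the viewpoint's counts in both states within counting error, but the pairs inside it were placed differently. It held 14.2% of all counts in naive cells (13.9 to 14.5%) and 14.5% in primed cells (14.1 to 14.9%), a ratio of naive to primed of 0.981 (0.944 to 1.02). Naive counts were gathered near Nanog, on Slc2a3 and on Nanog's +60 enhancer, which lies inside the Slc2a3 span. Primed counts reached farther into the Clec4 and Vmn2r clusters. With only pairs within 1 Mb of the viewpoint as the denominator, the ratio was 0.834 (0.803 to 0.867), since 36.7% of naive counts but 46.1% of primed counts had a fragment more than 1 Mb away. The 2 tables shared 544 of the 4448 distinct pairs of the region, and these shared pairs held 53.9% of the naive and 49.2% of the primed counts. The same overlap was not computed for the other pairs of the viewpoint, so it is not shown to be particular to the region. Most pairs of the region were seen once, 1803 in naive and 1701 in primed cells. The highest count of a pair was 40 and 52.

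Blocks of distance show the shift most plainly. Pairs with both fragments in the first 100 kb, which holds Slc2a3, had 3900 naive and 2521 primed counts, 1.23 times the primed share of all counts (1.17 to 1.30). In the second 100 kb, which holds Foxj2, C3ar1 and Necap1, the 860 and 829 counts gave a ratio of 0.827 (0.751 to 0.911). From there to 500 kb from the viewpoint the counts were 303 and 377, a ratio of 0.641 (0.549 to 0.747). From 500 kb to 1 Mb they were 265 and 516, and the ratio was 0.409 (0.352 to 0.476). The ratio thus fell from block to block, with the first block alone above 1.
The span of the same distances on the other side of the viewpoint was lower in counts, and its ratios by counts did not follow this order. It held 2826 naive (6.88%) and 1864 primed counts (5.69%), and the ratio was 1.21 (1.14 to 1.28). There the second 100 kb had the higher ratio of its 4 blocks, 1.51 (1.33 to 1.73), and only the block from 500 kb to 1 Mb lay below 1, at 0.567 (0.456 to 0.704). With each distinct pair counted once, its 4 ratios were 1.23, 1.24, 0.955 and 0.729. They too were lower beyond 256.5 kb, but did not fall from the first block to the second, and only the last interval lay below 1. The ratio on the Slc2a3-Foxj2 side divided by that of the other side was 0.913 in the first 100 kb (0.820 to 1.02), an interval that includes 1. It was 0.547 in the second 100 kb (0.463 to 0.644), 0.576 in the next block (0.467 to 0.709) and 0.722 in the farthest (0.554 to 0.942). With each distinct pair counted once, these were 1.05, 0.640, 0.775 and 0.643, and the interval from 256.5 to 500 kb then ran from 0.600 to 1.00.

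**Figure D1:**
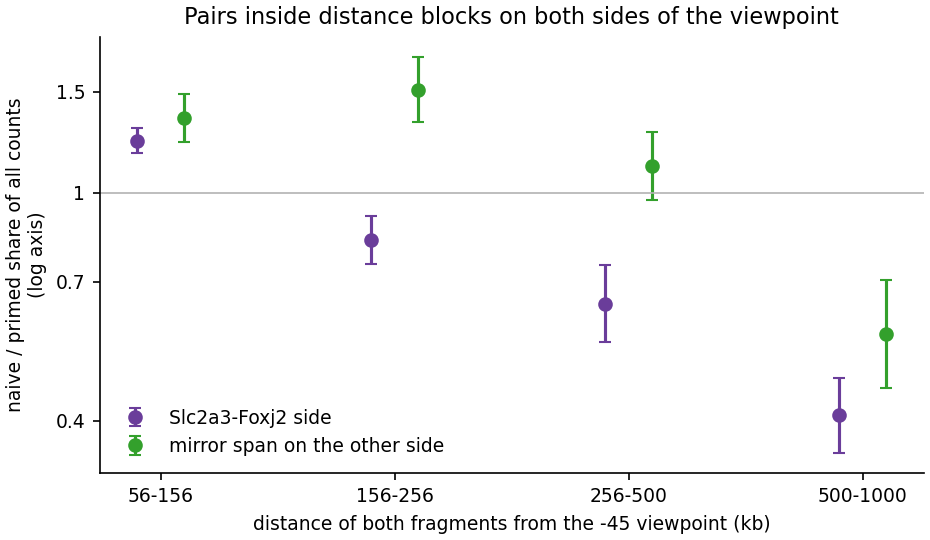
Naive share of all counts of the −45 viewpoint divided by the primed share (log axis) for pairs with both fragments in a block of distance (kb), on the Slc2a3-Foxj2 side (purple) and on the other side (green), with exact 95% intervals for counting error. On the Slc2a3-Foxj2 side the points go down from 1.23 to 0.409, and on the other side the first 3 points lie above 1, the interval of the nearest 2 included.

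A lower naive share at long range was not particular to this viewpoint. Of the 18 sides of the 9 viewpoints that reached 1000 counts in both states, 13 had a ratio below 1 for pairs 256.5 to 1000 kb away, 10 of them with an interval below 1. Intervals of 2 sides lay above 1, and the ratios ran from 0.410 to 1.52. The Slc2a3-Foxj2 side, at 0.511 (0.461 to 0.567), had the 5th lowest ratio of the 18.

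Members also differed in how far apart their fragments lay. Under 2 kb apart were 3855 naive counts (66.1%) and 2864 primed counts (60.4%), a ratio of 1.09 (1.04 to 1.15) that was 1.00 (0.914 to 1.10) with each distinct pair counted once. Over 10 kb apart were 1439 (24.7%) and 1413 (29.8%), with a ratio of 0.828 (0.769 to 0.891). Over 100 kb apart were 424 (7.27%) and 567 (12.0%), with a ratio of 0.608 (0.535 to 0.691). Long three-way contacts inside the region were thus more frequent in the primed table. Pairs of adjacent fragments, with only the GATC between them, made 53.3% of naive and 49.0% of primed counts in the region, against 33.5% and 31.4% in the whole table. In the span on the other side they made 52.9% of naive (51.1 to 54.8%) and 52.9% of primed counts (50.6 to 55.2%), the latter above the region's primed share (47.6 to 50.4%). Such a pair can come from a stretch that DpnII did not cut, and how many did was not tested. Without adjacent pairs the region's share was 9.96% (naive) and 10.8% (primed), which gave a ratio of 0.927 (0.877 to 0.979).
The 5 fragment pairs with the most counts were all adjacent. In order, they began at 122720659 (32 naive and 52 primed counts), 122785624 (31 and 29), 122727440 (37 and 21), 122742194 (40 and 16) and 122792870 (29 and 18). The pair at 122720659, before Slc2a3, had a ratio of 0.500 (0.312 to 0.792) and the pair at 122742194, inside Slc2a3, one of 2.03 (1.11 to 3.89). The intervals of the other 3 included 1.

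In bins of 10 kb, counting every pair with at least 1 fragment in the bin, all 95 bins of the region had counts in both states. The 17 bins up to the end of Necap1 had ratios of the shares of the region's counts from 0.693 to 1.64 with a median of 1.02. Intervals of 6 of these bins lay above 1 and of 2, at 122840001 and 122850001, below. With distinct pairs 7 lay above and 0 below, and the intervals of both lower bins then included 1. Beyond Necap1, 67 bins had at least 20 counts in both states together, with a median ratio of 0.503 and a range from 0.0301 to 1.99. None of those 67 had an interval above 1, and 31 had one below (22 with distinct pairs). Over the whole region, 6 of 84 bins with 20 counts lay above 1 and 33 below, against 7.41% and 34.8% of the 135 such bins on both sides of the viewpoint, each taken as a share of its own side. Of the 31, 19 lay between Necap1 and the Vmn2r cluster and 12 in that cluster. The end of Necap1 as the border was taken from the annotation after the profile had been seen.

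**Figure D2:**
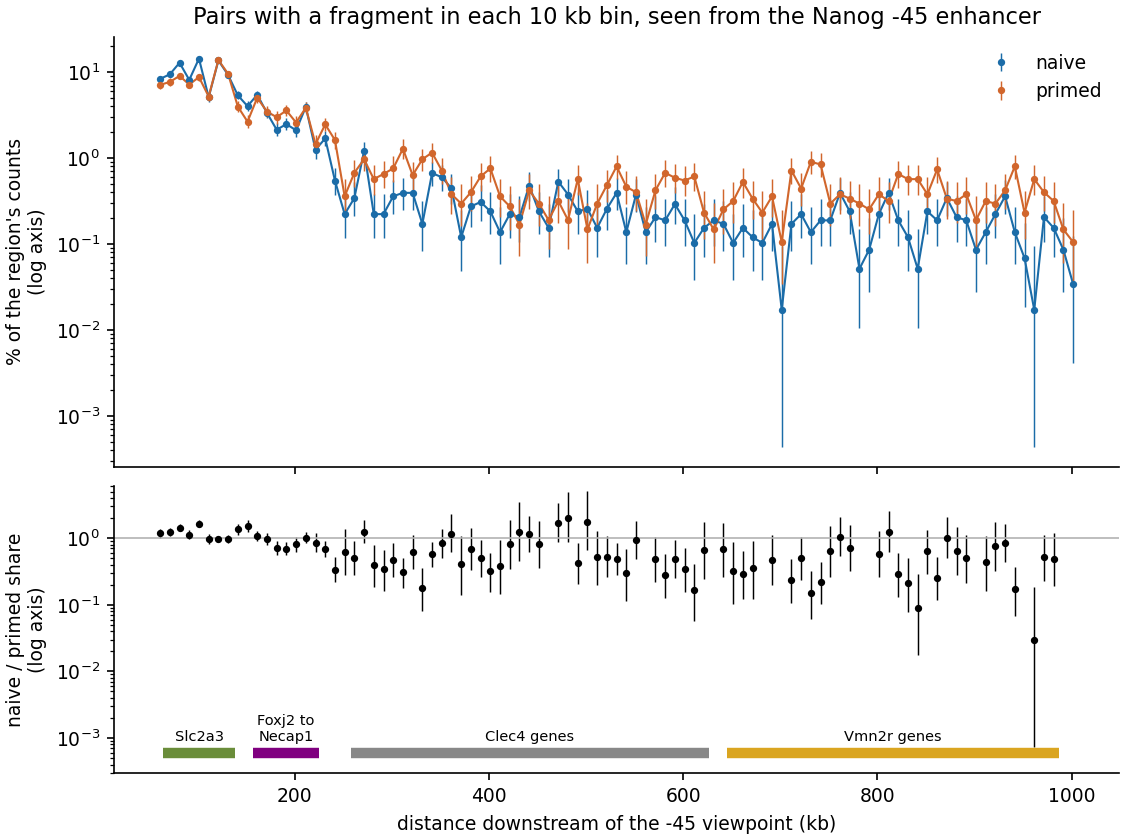
Above, share of the region's counts (%, log axis) with a fragment in each 10 kb bin against the distance from the −45 viewpoint (kb) in naive (blue) and primed (orange) cells; below, the ratio of these shares (log axis) for bins with at least 20 counts, with gene spans as bars. Vertical lines are exact 95% intervals for counting error. The naive share is the higher one at 100 kb, and most ratios lie below 1 past the end of Necap1.

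With shares taken of all counts within 1 Mb, pairs that leave the region included, and a fold of 1.5 as the threshold, 2 of the region's 92 bins with at least 20 counts were higher in naive cells, against 7.5% of all 160 bins within 1 Mb on both sides. Both lie in the Clec4 cluster. The bin at 123130001 had 45 naive and 16 primed counts, a ratio of 1.91 (1.06 to 3.61), which was 1.68 (0.880 to 3.35) on the 31 and 15 counts of pairs inside the region, and the bin at 123160001 had 18 and 8, a ratio of 1.53 whose interval includes 1. In primed cells 63 of the 92 were higher, 68.5%, against 52.5% of all 160 bins and 30.9% of the 68 bins outside the region. Since no bin has a replicate, these are sizes and not tested calls.
The 10 bins with the most counts all lay in the first 110 kb. The bin at 122780001, in the far part of the Slc2a3 span, had the most, with 799 naive and 658 primed counts and a ratio of 0.987 (0.889 to 1.10). The bin at 122740001, inside Slc2a3, had 752 and 429, with a ratio of 1.43 (1.26 to 1.61). The bins at 122720001, across the near edge of Slc2a3, and 122730001, in the gene, had ratios of 1.18 and 1.22. The bin at 122800001, across the end of Slc2a3, had one of 1.35 (1.12 to 1.63). Ratios of the remaining ones, at 122750001, 122770001, 122790001 and 122820001, ran from 0.970 to 1.13 with intervals that included 1. Of these 10, the bins with an interval above 1 thus lay across the near edge of Slc2a3, inside it and across its end at 122802363. Bins between them had intervals that included 1.

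By counts, the bin of the +60 enhancer had the highest ratio of the 10 bins with the most counts. Pairs with a fragment in its bin, chr6:122760001-122770000, had 840 counts in naive cells (14.4% of the region) and 416 in primed cells (8.78%), 1.64 times the primed share (1.46 to 1.85). With distinct pairs the ratio was 1.59 (1.34 to 1.89), and the bin at 122720001 was then the highest of the 10 at 1.61 (1.29 to 2.02). As a share of all counts within 1 Mb, pairs that leave the region included, it was 1.43 (1.30 to 1.58), under the fold of 1.5 used above. Pairs inside the bin had 516 and 235 counts, a ratio of 1.79 (1.53 to 2.09), and pairs that joined it to another bin of the region had 324 and 181, a ratio of 1.46 (1.21 to 1.76). All 5 windows of 2 kb in this bin had a ratio with an interval above 1, against 38% of all 50 windows of the first 100 kb and 14 of the 45 outside the bin. The window at 122764001, which holds the +60 oligonucleotide, had the highest of the 5, 2.55 (1.88 to 3.52).
The most distal of the study's Nanog enhancers, placed here by the distance from the start of Nanog that its name gives, falls in the bin chr6:122810001-122820000, just before Foxj2. This bin had 235 naive counts (4.03%) and 126 primed counts (2.66%), a ratio of 1.52 (1.22 to 1.90), or 1.25 (1.05 to 1.49) as a share of all counts within 1 Mb. Its window of 2 kb at 122812001 reached 2.66 (1.33 to 5.79), on 36 and 11 counts. Both enhancer bins thus had a higher naive share, as did other bins of the first 100 kb, such as those at 122740001 and 122800001. Pairs that joined the 2 enhancer bins had only 3 and 4 counts, too few for an order.
The +60 enhancer was also a viewpoint of its own in the second pool, where it had 92 naive and 74 primed counts. Of these, 39 (exact Poisson interval 27.7 to 53.3) and 28 (18.6 to 40.5) lay in the region, shares of 42.4% and 37.8%. Adjacent fragments made 26 in each state, and the pairs that were not adjacent had 13 and 2 counts, a ratio of shares of 5.23 (1.18 to 47.7), which 2 primed counts leave wide.

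Among pairs of bins, the +60 enhancer and the bin at 122740001 had the highest ratio of naive to primed shares of the 71 with at least 20 counts in both states together. That pair had 73 naive and 17 primed counts, which gave a ratio of shares of 3.49 (2.04 to 6.31), on 59 and 16 distinct pairs. Both bins lie inside Slc2a3, 20 kb apart. The 7 other pairs of bins 20 kb apart in the first 100 kb had at most 42 counts and a median of 15 in naive cells, and at most 35 and a median of 11 in primed cells. The pair had the highest count of the 8 in naive cells, and 2 of the 8 had more in primed cells. In primed cells the +60 bin had its highest count at this separation with the bin at 122780001, 35 against 42 in naive cells. Below the minimum of 20 counts, pairs such as 122720001 with 122790001, at 18 and 0 counts, were more uneven. No matched pair of bins was chosen before these counts had been seen.

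**Figure D3:**
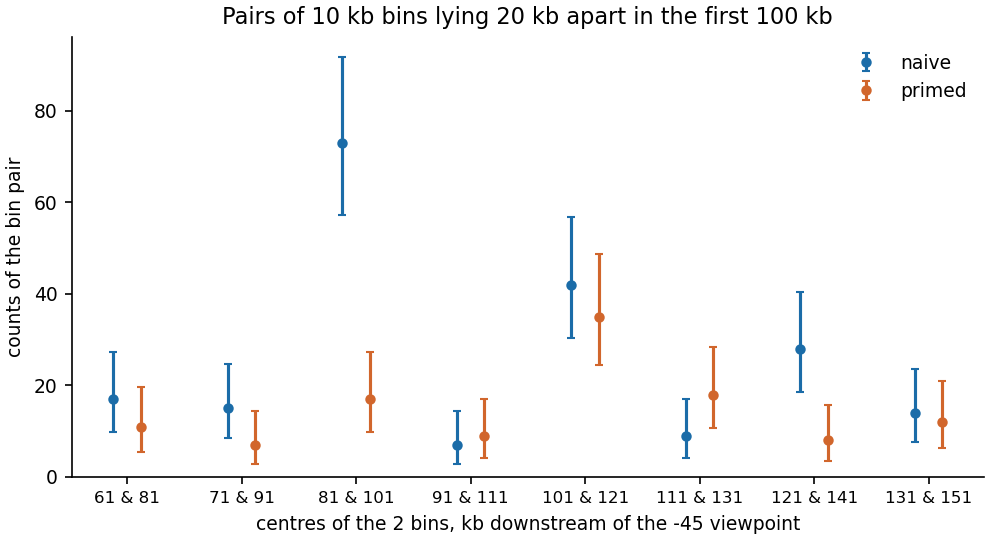
Counts (linear axis) of the 8 pairs of 10 kb bins lying 20 kb apart in the first 100 kb of the region, ordered by distance from the −45 viewpoint (kb, bin centres), in naive (blue) and primed (orange) cells, with exact Poisson 95% intervals. The pair of the bin at 81 kb with the +60 bin, both inside Slc2a3, stands at 73 in naive and 17 in primed cells.

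The 71 were taken from 804 pairs of bins with a count, and 38 of them joined different bins. Of the 71, 10 had an interval above 1 and 11 one below, against 15.3% and 14.4% of 111 such pairs on both sides. Of the 38, 3 lay above and 5 below, against 10.9% each way of 46. The next highest ratios were those of 122780001 with 122800001 (28 and 8 counts, 2.85, 1.26 to 7.22), 122730001 with 122770001 (17 and 5, 2.76, 0.979 to 9.58), 122720001 with 122760001 (16 and 5, 2.60, 0.910 to 9.08) and 122730001 with 122800001 (16 and 6, 2.17, 0.806 to 6.76), and the intervals of the last 3 included 1. All 5 highest pairs lie in the first 100 kb, and 2 of them involve the +60 bin. The lowest ratio between different bins, 0.0903 (0.0102 to 0.377), was that of 123400001 with 123520001 in the Vmn2r cluster, with 2 and 18 counts on 1 and 12 distinct pairs. The other low ones were the bins at 122900001 (14 and 48 counts, 0.237, 0.121 to 0.437), 122960001 (5 and 16, 0.254) and 123240001 (6 and 16, 0.305) with themselves, and 122760001 with 122790001 (7 and 21, 0.271). The +60 bin was therefore on both lists, higher in naive cells with the bin at 122740001 and lower with the bin at 122790001.

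**Figure D4:**
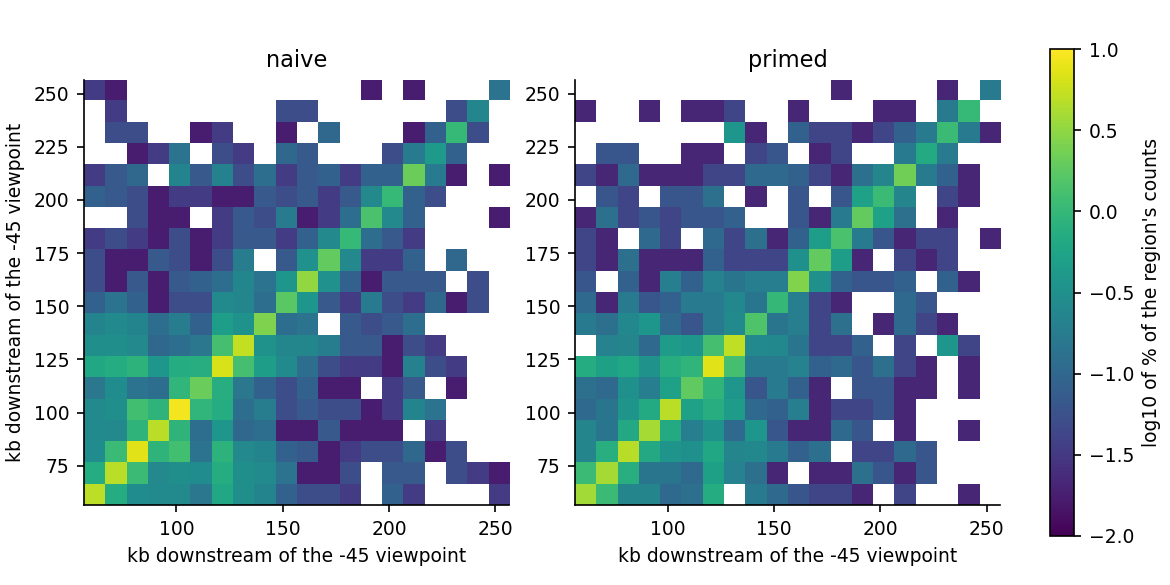
Contact maps of the first 20 bins of the region in naive (left) and primed (right) cells, both axes in kb from the −45 viewpoint, with the log10 of the percent of the region's counts in each pair of 10 kb bins as colour and white for pairs with no count. The spot that joins about 81 and 101 kb, the bin at 122740001 with the +60 bin, is brighter in naive cells, 73 against 17 counts.

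Among the genes, a pair was given to a gene where at least 1 midpoint lay in its span. Of the 29 annotated genes, 18 had at least 20 counts. In 1 of the 18 the interval of the ratio lay above 1, against 9.09% of the 33 genes with 20 counts on both sides of the viewpoint, and in 12 it lay below, against 45.5%. The 33 include the region's own 18. Of the 15 genes on the other side alone, 2 lay above 1 and 3 below. The median ratio of the region's 18 was 0.510. The 4 genes nearest to Nanog did not move together.
Slc2a3, the glucose transporter gene (chr6:122727809-122802363), took 3654 naive counts (62.7% of the region) and 2493 primed counts (52.6%). It was the gene with an interval above 1, at 1.19 (1.13 to 1.25), and at 1.25 (1.16 to 1.35) with distinct pairs. Its counts include the 840 naive and 416 primed counts of the +60 bin, and its ratio without them was not computed. Per kb of its span, Slc2a3 had 49.0 counts in naive and 33.4 in primed cells. Values per kb, here and below, are raw counts, not adjusted for the 41081 naive and 32749 primed counts of the viewpoint. The pseudogene Gm4482 lies inside the span of Slc2a3, shares its fragments and had a ratio of 0.912 (0.777 to 1.07).
Foxj2, the forkhead factor gene, had 568 naive and 469 primed counts and a ratio of 0.984 (0.870 to 1.12), with 22.6 and 18.6 counts per kb. C3ar1, the complement receptor gene next to it, had 111 and 133 counts. Its ratio was 0.678 (0.522 to 0.879), or 0.724 (0.524 to 0.996) with distinct pairs, with 12.3 and 14.7 counts per kb. Necap1, the endocytosis gene, had 197 and 147 counts and a ratio of 1.09 (0.875 to 1.36), with 13.7 and 10.2 per kb. Per kb, the order in naive cells was therefore Slc2a3, Foxj2, Necap1 and C3ar1. C3ar1, which lies between Foxj2 and Necap1, was the only one of the 4 with a lower naive share beyond counting error.

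**Figure D5:**
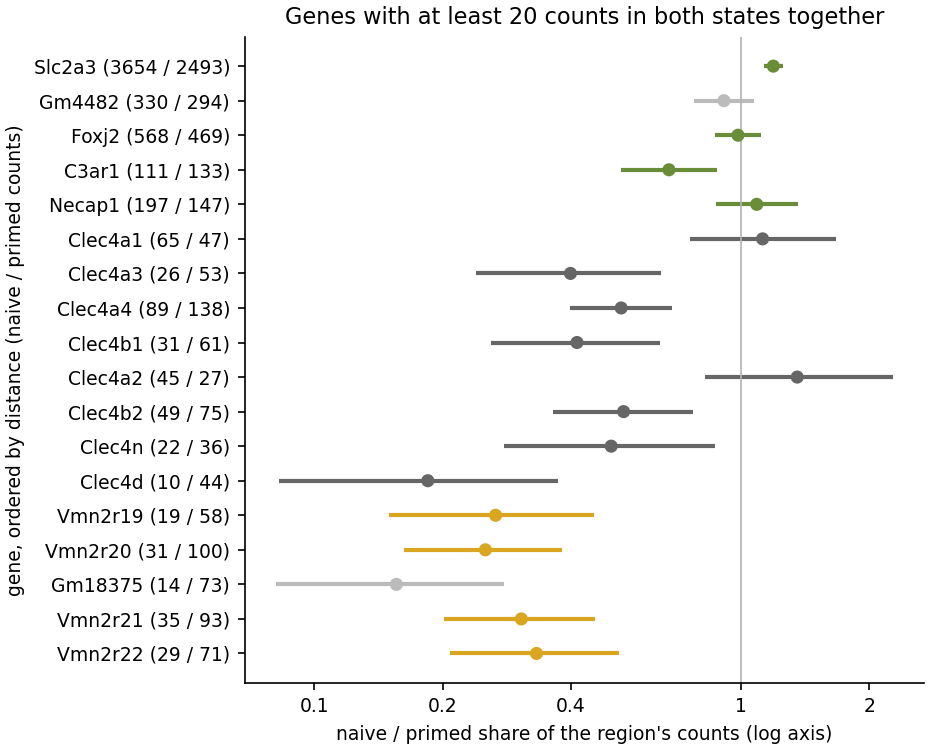
Naive share of the region's counts divided by the primed share (log axis) for the 18 genes with at least 20 counts in both states together, in order of distance, with exact 95% intervals for counting error and the counts in brackets. Slc2a3 lies above 1, 6 Clec4 genes (dark grey) and all 4 Vmn2r genes (yellow) lie below 1 with their intervals, and the near genes are green.

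Pairs that joined 2 genes gave a more mixed picture. The 4 near genes and the 2 clusters make 15 combinations of different groups, of which 1 had an interval above 1 and 4 one below, by counts and by distinct pairs. These had no minimum of counts, and no such groups were formed on the other side. Of the 46 pairs of different 10 kb bins with 20 counts on both sides, a smaller unit, 10.9% lay above 1 and 10.9% below. Pairs inside Slc2a3 had 3121 and 2009 counts, a ratio of 1.26 (1.19 to 1.34). Slc2a3 with Foxj2 had 74 and 65 counts, a ratio of 0.925 (0.654 to 1.31). Slc2a3 with Necap1 had 37 and 14, a ratio of 2.15 (1.13 to 4.30), and Slc2a3 with C3ar1 had 8 and 21, a ratio of 0.310 (0.119 to 0.728). Of the pairs with Necap1, 14 naive counts and 1 primed count had their other fragment in the +60 bin, a ratio of 11.4 (1.73 to 481), which 1 primed count leaves wide. Without pairs that have a fragment in the +60 bin, Slc2a3 with Necap1 had 23 and 13 counts, a ratio of 1.53 with an interval from 0.744 to 3.29. So within Slc2a3's own contacts the naive share was higher with Necap1, but not beyond counting error without the +60 bin, and lower with C3ar1, while that with Foxj2 did not differ beyond counting error.

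The Clec4 genes, from chr6:122921848 on, had more primed contacts as a group. Of 9 genes 8 had at least 20 counts, the ratios of 6 had an interval below 1 (5 with distinct pairs), none had one above, and the median ratio was 0.510. For comparison, 12 of all 18 genes of the region and 45.5% of the 33 genes on both sides had an interval below 1. The lowest was that of Clec4d, with 10 naive and 44 primed counts and a ratio of 0.185 (0.0829 to 0.373). Clec4a3 had 26 and 53 (0.399), Clec4b1 31 and 61 (0.413), Clec4a4 89 and 138 (0.524), Clec4b2 49 and 75 (0.531) and Clec4n 22 and 36 (0.497). The 2 genes with a ratio above 1 were Clec4a1, the nearest, with 65 and 47 (1.12), and Clec4a2 with 45 and 27 (1.36, 0.823 to 2.27), and both intervals included 1. Clec4e had 9 counts in each state. Pairs with a fragment anywhere in the cluster had 579 naive (9.93%) and 739 primed counts (15.6%), a ratio of 0.637 (0.570 to 0.711). Pairs inside the cluster had 404 and 548 counts (0.599), and pairs that joined it to Slc2a3 had 53 and 66 (0.653, 0.446 to 0.951).
The Vmn2r genes, at the far end, had the lowest median ratio of the 3 gene groups, 0.286, though Clec4d alone was lower than each of them. Vmn2r19 had 19 naive and 58 primed counts (0.266), Vmn2r20 31 and 100 (0.252), Vmn2r21 35 and 93 (0.306) and Vmn2r22 29 and 71 (0.332). All 4 intervals lay below 1, with distinct pairs too, against 12 of all 18 genes of the region by counts. Gm18375, which lies inside Vmn2r20 and shares its fragments, had 14 and 73 counts. Pairs with a fragment in the cluster had 227 naive (3.89%) and 466 primed counts (9.83%), a ratio of 0.396 (0.336 to 0.465). Pairs that joined the cluster to Slc2a3 had 12 and 42 counts, a ratio of 0.232 (0.111 to 0.449), and pairs that joined it to the Clec4 cluster had 19 and 35 (0.441, 0.238 to 0.793). Its links to Foxj2 (3 and 4 counts), C3ar1 (2 and 1) and Necap1 (3 and 5) were few, with intervals that included 1.
Pairs inside the Vmn2r cluster had a property that the other groups lacked. Of its 170 naive and 347 primed counts, only 22.9% and 22.2% were of adjacent fragments, against 58.7% and 47.1% in the Clec4 cluster, and 118 and 232 counts were of fragments over 10 kb apart. Of pairs with both fragments in the 4 Vmn2r genes, 73.6% of naive and 63.3% of primed counts lay in 2 different genes, against 8.70% and 11.9% for the Clec4 genes. In 53 of the 118 naive counts and 87 of the 232 primed counts over 10 kb apart, both fragments had the same length to the base. Counting also pairs in which each fragment had the length of a neighbour of the other, there were 74 (62.7%) and 114 (49.1%). In the Clec4 cluster this held for 0 of 65 naive and 1 of 140 primed counts, and up to the end of Necap1 for 4 of 999 and 3 of 709. Where gene copies are alike, a read can be assigned to the wrong one, which was not tested here. Likeness in sequence was measured only for the promoters of Vmn2r20 and Vmn2r22. Values of single Vmn2r genes and of pairs between them, such as 123400001 with 123520001, are therefore taken as uncertain. Without the pairs of matching length the ratio inside the cluster was 0.331 (0.258 to 0.422) in place of 0.398 (0.330 to 0.480). Without all pairs over 10 kb apart inside it, it was 0.357 (0.252 to 0.499). For pairs over 100 kb apart in the whole region, leaving out all pairs inside the cluster gave 0.675 (0.577 to 0.789) in place of 0.608. For pairs with both fragments in the block from 500 kb to 1 Mb, it gave 0.445 (0.343 to 0.576) in place of 0.409. All 4 of these ratios stayed below 1 with their intervals. The ratios of single Vmn2r genes and of their links to other groups were not recomputed without the pairs of matching length.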

How the data were processed

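Tri-C libraries of J1 cells were made by the authors with DpnII and captured with 100 nt oligonucleotides in 2 pools. The authors used CapCruncher (capture mode, mm10) and deposited, for each viewpoint and state, counts of reporter fragment pairs from reads with 2 or more cis reporters. For versions and duplicate removal, nothing is stated in the labels or methods. Per the labels and file contents, the deposited counts are whole, not normalized and without replicates. Fragment positions in the tables leave out the 4 bases of GATC between neighbours.

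Fragments were placed by their midpoints. A share is counts over the region's counts or, where stated, all counts of the viewpoint, with a Clopper-Pearson 95% interval, and a ratio of shares has an exact interval from the binomial split of the summed counts. Windows were 10 kb bins, with at least 20 counts in both states together. Genes came from RefSeq (GRCm38.p6), and the mirror span on the other side had equal distances. Named were genes with 20 counts, the 2 enhancer bins, the 10 fullest bins, the 5 highest and 5 lowest bin pairs and the 5 fullest fragment pairs. Other items named were chosen after their values were seen. The members and lists were chosen with earlier results of these data known. Python 3.11.15, numpy 2.4.6, pandas 2.3.3, scipy 1.17.1 and matplotlib 3.10.9 were used, and the calculation was tested on simulated data. Alternatives changed the denominator, the bins, the minimum, the weight of repeated pairs, close pairs and the start of the region.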

Additional observations from a re-analysis of the deposited data

Results flagged for a closer look

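The viewpoint at the +60 enhancer, captured in the second pool and outside the main counts, lies inside the region and had 39 naive and 28 primed counts there. These pass the 3 counts that a count of 0 allows, which the place of the viewpoint by itself leads to, and 26 in each state were of adjacent fragments.

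The ratio of naive to primed shares differed between the 2 sides of the −45 viewpoint in 3 of the 4 blocks of distance, by the exact interval of the ratio of ratios and not by a test over samples. It was 0.547 times that of the other side in the second 100 kb, 0.576 times from there to 500 kb, and 0.722 times from 500 kb to 1 Mb. With each distinct pair counted once, 2 of the 3 differences were left, and the interval of the block to 500 kb (0.600 to 1.00, at 0.775) reached 1. In each of these blocks the Slc2a3-Foxj2 side was the more shifted toward primed cells.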

How the results depend on the processing

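No paired analysis was possible because replicates are not separated in the deposited counts, and they could not be left out in turn either. Of 57 alternatives, 43 left the value within its main interval or a count within 1.5 times, 14 moved it and none turned a direction whose interval excluded 1. The ratio of the region's share, 0.981, was 0.834 with counts within 1 Mb as the denominator, 0.842 with the bin of the viewpoint also left out, and 0.887 without pairs under 2 kb apart. Leaving out those close pairs raised Slc2a3 from 1.19 to 1.27 and pairs inside the first 100 kb from 1.26 to 1.44 of the region's counts, and the latter were 1.36 with each distinct pair once. The excess of close pairs in naive cells, 1.09, was 1.00 with each distinct pair once. Bins at least 1.5-fold higher in naive cells numbered 2, but 5 with bins of 5 kb, 0 with 20 kb, 1 with a minimum of 50 counts, 0 with distinct pairs and 1 without close pairs. Those higher in primed cells numbered 63, but 34 with bins of 20 kb and 26 with a minimum of 50, where fewer bins were left (47 and 46). The 5 alternatives on pairs inside the Vmn2r cluster and the one on the +60 bin in pairs of Slc2a3 with Necap1 were added after the data had been seen. Depth limits the far bins, most of which had few counts, and bin pairs, of which 71 of 804 reached 20.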
